A study of Mus musculus with 9 samples.

Results

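The 10 genes of a WNT response set were followed across 3 sorted populations of the mouse hair follicle: the DNA-binding TCF/LEF factors Lef1, Tcf7, Tcf7l1 and Tcf7l2, and the target genes Axin2, Nkd1, Nkd2, Notum, Apcdd1 and Tnfrsf19. They were chosen by name, as the factors through which β-catenin acts and as genes whose transcription is widely used to read WNT signalling. Earlier results of these data were known when they were chosen. Each gene was read from the probe sets annotated to its symbol alone, taking the one with the brightest mean. That gave 9 of the 10 genes a value, among 12393 genes named on the array and 7796 that passed a filter on low signals. Tcf7 was not analysed here because no probe set was listed under its symbol alone in the annotation used.

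The mice were CD1 females of genotype Lef1RFP/K14H2BGFP, which every sample shared, kept as virgins. A red reporter under Lef1 control marked dermal papilla cells, and a green histone fusion under the keratin 14 promoter marked the epithelium. Back skin was taken on postnatal days 43, 56 and 69, labelled early, mid and late telogen, the resting phase before the follicle regrows. Dermal papilla cells were RFP+, GFP-, CD45-, CD117- and Itga7-, and by the titles also CD34-, and came from the collagenase step. Hair germ cells (RFP-, GFP+, CD34-, P-cadherin high) and bulge cells (RFP-, GFP+, CD34+, P-cadherin low) came from the trypsin step that followed. There were 9 arrays, 1 for each population on each day, so 3 per population. The labels do not say if animals were pooled or if 1 set of mice gave all 3 populations on a day. The 3 days stand in as replicates of a population, and day is a term of the fit. A p-value therefore measures the spread left between these arrays after an effect of day shared by the populations is removed. Changes with age that differ between populations stay in that spread. The series was designed to look for signals from the papilla and their targets in hair germ and bulge.

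WNT proteins bind Frizzled receptors with the co-receptors LRP5 and LRP6 and stop a cytoplasmic complex from destroying β-catenin. β-catenin then enters the nucleus and joins TCF/LEF proteins, turning factors that hold target genes silent into activators. Many of the targets switched on in this way feed back on the pathway: some act on β-catenin or Dishevelled inside the cell, others on the ligand outside it. In the hair follicle this signalling is needed in the epithelium to start regrowth, and in the papilla to keep its inductive state.

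Promoter sequences were used for 8 of the 10 genes, in 14 windows of 300 bases running from 250 before to 50 after an annotated start. The HMG domain of TCF/LEF proteins binds the core CTTTG, most often within CTTTGAT or CTTTGAA. Both strands were searched, and the longer motifs each contain the core. The core lay in 8 of the 14 windows, against 53.9% of the 32851 windows of all genes. CTTTGAT lay in 1 of the 14, the second Tnfrsf19 window, against 3.73% of all windows, and CTTTGAA in none of the 14, against 5.14%. The 14 windows are not independent, since the first and second Lef1 windows overlap. The 5 stretches shown are each the 250 bases before a start, chosen to set the letters beside the levels that follow: Axin2, which differed between all 3 populations, Lef1 and Nkd2, which were brightest in dermal papilla and of which 1 holds the core here and 1 does not, and both Tnfrsf19 starts, the gene brightest in hair germ. They are RefSeq sequences of GRCm38.p6, written along the gene's strand, with capitals marking the core CTTTG or its reverse complement. They lie at chr11:108920099-108920348 on the plus strand (Axin2), chr3:131110047-131110296 on the plus strand (Lef1), chr13:73847632-73847881 on the minus strand (Nkd2), chr14:61046856-61047105 on the minus strand (Tnfrsf19, first start) and chr14:61037988-61038237 on the minus strand (Tnfrsf19, second start).
Axin2: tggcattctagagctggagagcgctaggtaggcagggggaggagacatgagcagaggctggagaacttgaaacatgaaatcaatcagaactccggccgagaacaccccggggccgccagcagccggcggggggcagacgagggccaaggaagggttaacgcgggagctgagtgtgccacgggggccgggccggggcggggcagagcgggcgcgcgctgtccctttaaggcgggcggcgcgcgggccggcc
Lef1: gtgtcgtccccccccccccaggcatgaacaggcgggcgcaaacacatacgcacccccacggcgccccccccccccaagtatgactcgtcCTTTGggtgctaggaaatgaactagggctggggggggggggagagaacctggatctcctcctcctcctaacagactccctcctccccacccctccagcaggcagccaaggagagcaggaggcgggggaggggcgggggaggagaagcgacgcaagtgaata
Nkd2: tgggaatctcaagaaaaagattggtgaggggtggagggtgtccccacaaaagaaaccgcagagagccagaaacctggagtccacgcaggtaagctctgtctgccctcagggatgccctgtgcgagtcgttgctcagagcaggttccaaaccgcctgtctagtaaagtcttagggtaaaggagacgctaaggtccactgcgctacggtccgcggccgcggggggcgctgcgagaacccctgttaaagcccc
Tnfrsf19, first start: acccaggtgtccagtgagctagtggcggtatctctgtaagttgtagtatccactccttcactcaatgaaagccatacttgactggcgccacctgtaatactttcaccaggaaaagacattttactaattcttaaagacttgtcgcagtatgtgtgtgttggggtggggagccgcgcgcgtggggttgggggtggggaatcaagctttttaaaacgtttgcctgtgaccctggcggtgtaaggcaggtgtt
Tnfrsf19, second start: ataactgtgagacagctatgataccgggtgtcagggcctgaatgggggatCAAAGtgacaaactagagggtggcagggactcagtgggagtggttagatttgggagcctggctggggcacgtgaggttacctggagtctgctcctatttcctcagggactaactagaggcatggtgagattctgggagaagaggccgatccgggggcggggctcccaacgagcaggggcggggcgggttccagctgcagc
The Lef1 stretch holds 1 core and the second Tnfrsf19 stretch holds 1, which is the reverse complement of CTTTGAT with its flanking bases; the Axin2, Nkd2 and first Tnfrsf19 stretches hold none. No match says only that these letters are not in this window, and a match is not a bound site.

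Median probe set signals ran from 39.9 to 56.3 over the 9 arrays, and values below are log2(signal + 16) unless said otherwise. Cd34 and Krt14, genes of the sort, followed the labels. Cd34 averaged 5.36 ± 0.32 in dermal papilla, 4.70 ± 0.89 in hair germ and 11.69 ± 0.08 in bulge (SD, n = 3 each). Krt14 averaged 5.06 ± 0.69 in dermal papilla, 13.02 ± 0.38 in hair germ and 10.91 ± 0.29 in bulge (SD, n = 3 each). All 8 papilla markers were above the array median on at least 1 dermal papilla array, and their summed signal was 12503 to 17480 there, against 174 to 525 in hair germ and 167 to 218 in bulge. The probe set for P-cadherin, Cdh3, was below the array median on all 9 arrays and checks nothing. Ptprc (CD45), Kit (CD117) and Itga7, gated against in dermal papilla, were below the median on all 3 dermal papilla arrays. Ptprc was above it on all 3 bulge arrays, at 7.01, 7.33 and 7.18 on days 43, 56 and 69. In hair germ on these days Ptprc was at 5.40, 5.90 and 6.23, Kit at 6.19, 6.66 and 5.23, and Itga7 at 5.68, 5.37 and 6.35. Endothelial markers were below the median in every population, 5 of 5. Melanocyte markers summed to 1717 to 4292 in hair germ, against 132 to 179 in bulge, with all 5 above the median on at least 1 hair germ array. Leukocyte markers summed to 192 to 343 in hair germ and 256 to 363 in bulge. The 3′/5′ signal ratio of Gapdh, a measure of RNA integrity and amplification, was above 6 on 3 arrays: 6.62 in dermal papilla on day 43, 8.34 in hair germ on day 43 and 7.90 in hair germ on day 69, against 2.97 to 5.09 on the other 6. In sorted bulk RNA, fewer cells that express a gene and less RNA per cell cannot be told apart.

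**Figure D1:**
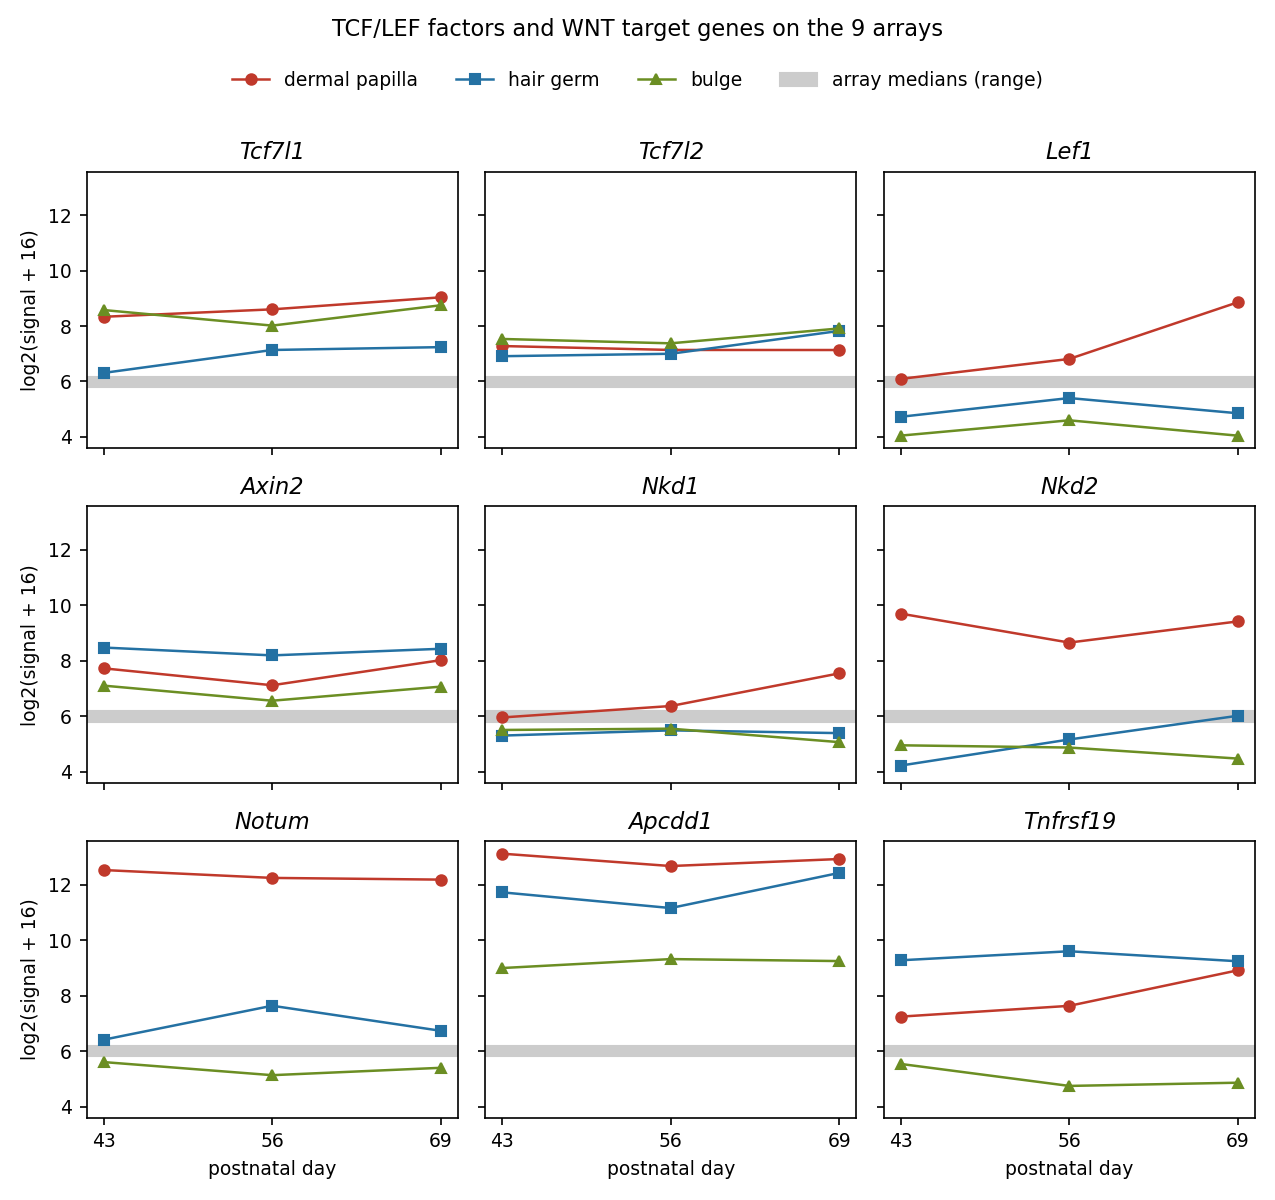
Levels of the 9 measured genes, as log2(signal + 16) on the vertical axis against postnatal day on the horizontal axis, with 1 point per array; red circles are dermal papilla, blue squares hair germ and green triangles bulge. The grey band spans the medians of the 9 arrays, from 5.81 to 6.18. Notum and Apcdd1 separate the populations on every day, Axin2 and Tnfrsf19 are highest in hair germ, and Nkd2 lies above the band on every dermal papilla array. Lef1 and Nkd1 lie within it in dermal papilla on day 43 and above it there on days 56 and 69.

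Tcf7l1, the family member that acts mainly as a repressor and is known from bulge stem cells, separated hair germ from both other populations. It was at 8.33, 8.60 and 9.04 in dermal papilla on days 43, 56 and 69, at 6.31, 7.14 and 7.24 in hair germ, and at 8.58, 8.02 and 8.75 in bulge. All 3 hair germ arrays lay below all 6 others, while dermal papilla and bulge overlapped. Dermal papilla exceeded hair germ by 1.76 ± 0.26 log2 units, or 3.39-fold (SE; limma, Benjamini-Hochberg adjusted p = 0.000279), and hair germ was below bulge by a log2 difference of -1.55 ± 0.26 (adjusted p = 0.00207). Between dermal papilla and bulge the difference was 0.21, with a 95% interval from -0.36 to 0.78 (adjusted p = 0.58). Without the 3 arrays of high Gapdh ratio, which leaves hair germ with 1 array assumed to vary like the others, the difference between hair germ and bulge was -0.95 and was no longer called (adjusted p = 0.118). A second probe set gave the same order, with differences of means of 2.48 for dermal papilla minus hair germ, 0.78 for dermal papilla minus bulge and -1.71 for hair germ minus bulge. Bulge markers summed to 239 to 917 in dermal papilla, against 7525 to 9705 in bulge. Of the 5 bulge markers, Cd34 and Lhx2 were below the array median on all 3 dermal papilla arrays. Ltbp2 (7.97, 7.31 and 7.46) and Nfatc1 (6.84, 6.22 and 6.15) were above it on all 3, and Fgf18 was at 9.14, 5.11 and 5.55. The part of carried-over bulge RNA in the dermal papilla level of Tcf7l1 was not tested.

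Tcf7l2, which can repress or activate depending on β-catenin, was above the array median on all 9 arrays and was not called in any of the 3 comparisons. Its levels were 7.28, 7.14 and 7.14 in dermal papilla, 6.91, 7.0 and 7.83 in hair germ, and 7.53, 7.38 and 7.91 in bulge. Every dermal papilla array lay below every bulge array, but hair germ overlapped both. The differences were -0.06 for dermal papilla minus hair germ (95% interval -0.61 to 0.48, adjusted p = 0.867), -0.42 for dermal papilla minus bulge (-0.97 to 0.12, adjusted p = 0.214) and -0.36 for hair germ minus bulge (-0.91 to 0.18, adjusted p = 0.338). These intervals leave room for differences of up to about 1 log2 unit. Its 3 other probe sets disagreed in sign for 2 of the 3 comparisons: from 0.10 to 0.60 for dermal papilla minus hair germ, from -0.73 to 0.63 for dermal papilla minus bulge and from -0.83 to 0.03 for hair germ minus bulge.

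Lef1, an activating factor of hair precursor cells and of the papilla, drives the red reporter, so that its excess in dermal papilla describes the sort and is no finding; both epithelial populations were gated RFP-, so their low level is set by the sort too. It was at 6.09, 6.81 and 8.86 in dermal papilla, at 4.73, 5.40 and 4.85 in hair germ, and at 4.05, 4.60 and 4.05 in bulge. It was above the array median in dermal papilla alone, through which it passed the filter. Hair germ was above bulge on all 3 days and the groups did not overlap, but the difference of 0.76 was not called (95% interval -0.37 to 1.90, adjusted p = 0.332) and both populations were below the array median. Its spread over dermal papilla arrays, an SD of 1.43, was the widest of the 9 genes in any population, with the day 69 array far above the other 2.

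Axin2, a scaffold of the β-catenin destruction complex and a standard WNT readout in many tissues, differed between all 3 populations and was highest in hair germ. It was at 7.73, 7.12 and 8.02 in dermal papilla, at 8.48, 8.20 and 8.43 in hair germ, and at 7.11, 6.56 and 7.07 in bulge. The 3 groups did not overlap, although the lowest dermal papilla array was only just above the highest bulge array. Hair germ exceeded bulge by 1.46 ± 0.21, or 2.75-fold (adjusted p = 0.000959). Dermal papilla was below hair germ by a log2 difference of -0.75 ± 0.21 (adjusted p = 0.0178) and above bulge by 0.71 ± 0.21 (adjusted p = 0.0241). Both dermal papilla calls ended under several alternatives, among them leaving out the day 43 dermal papilla array (adjusted p = 0.0556 against hair germ and adjusted p = 0.058 against bulge), whereas the call between hair germ and bulge held under all 20. A second probe set was below the array median on all 9 arrays.

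Nkd1 and Nkd2 encode inhibitors that bind Dishevelled, the protein that relays the signal from Frizzled. Both were brightest in dermal papilla and passed the filter through that population alone, so they had to differ in that direction. Their p-values for dermal papilla are given as descriptions only. Nkd2 was at 9.70, 8.66 and 9.42 in dermal papilla, at 4.22, 5.16 and 6.02 in hair germ, and at 4.95, 4.87 and 4.47 in bulge. No epithelial array came within 2 log2 units of a dermal papilla array. It was higher in dermal papilla by 4.13 ± 0.42 than in hair germ (adjusted p = 1.9e-05) and by 4.49 ± 0.42 than in bulge (adjusted p = 9.67e-06). Since both epithelial populations were below the array median, a bound against that median is safer: dermal papilla was at least 9.17-fold higher than hair germ and at least 10.6-fold higher than bulge. The bound takes, for each array of the dimmer population, the higher of the array median and the gene's own value. Hair germ and bulge overlapped (difference 0.37, 95% interval -0.57 to 1.30, adjusted p = 0.589). A second probe set gave differences of means of 3.52 and 3.85 for dermal papilla minus hair germ and dermal papilla minus bulge.

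Nkd1 was at 5.96, 6.37 and 7.55 in dermal papilla, at 5.30, 5.49 and 5.39 in hair germ, and at 5.51, 5.55 and 5.07 in bulge. The dermal papilla arrays lay above all 6 epithelial arrays, by little on days 43 and 56 and by more on day 69. The differences were 1.23 ± 0.37 against hair germ (adjusted p = 0.0237) and 1.25 ± 0.37 against bulge (adjusted p = 0.0236), with bounds of at least 1.47-fold and at least 1.71-fold. Without the day 69 dermal papilla array they were 0.69 (adjusted p = 0.134) and 0.71 (adjusted p = 0.129), and neither was called. The call against hair germ also ended without the day 56 or the day 69 hair germ array. The call against bulge also ended without the day 56 or the day 69 bulge array. Hair germ and bulge did not separate, with a difference of 0.02 and a 95% interval from -0.81 to 0.85 (adjusted p = 0.979).

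Notum, a secreted enzyme that removes the lipid WNT ligands need for receptor binding, had the largest population difference of the 9 genes. It was at 12.53, 12.25 and 12.18 in dermal papilla, at 6.41, 7.64 and 6.73 in hair germ, and at 5.60, 5.13 and 5.40 in bulge. The 3 groups did not overlap on any day, and the gene was below the array median on all 3 bulge arrays. Dermal papilla exceeded hair germ by 5.39 ± 0.30, or 42.1-fold (adjusted p = 2.56e-07), and bulge by 6.94 ± 0.30 (adjusted p = 5.76e-08), at least 88.3-fold. Hair germ exceeded bulge by 1.55 ± 0.30 (adjusted p = 0.00503), at least 2.10-fold. The hair germ level was highest on day 56, the day on which papilla markers (174, 525 and 233 on days 43, 56 and 69) and fibroblast markers (240, 983 and 426) also summed highest in hair germ; of the 8 papilla markers, 5 were below the array median on all 3 hair germ arrays. The part of such carried-over RNA in the hair germ level was not tested. All 3 calls held under all 20 alternatives.

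Apcdd1, a membrane protein that binds WNT ligand and its co-receptor and inhibits the signal, was graded in the order dermal papilla, hair germ, bulge. It was at 13.12, 12.67 and 12.93 in dermal papilla, at 11.73, 11.16 and 12.43 in hair germ, and at 8.99, 9.32 and 9.25 in bulge. All 9 arrays were above their medians and the groups did not overlap. Dermal papilla exceeded hair germ by 1.14 ± 0.27, or 2.20-fold (adjusted p = 0.00647), and bulge by 3.72 ± 0.27, or 13.2-fold (adjusted p = 1.41e-06). Hair germ exceeded bulge by 2.58 ± 0.27, or 6.0-fold (adjusted p = 0.000118). Its 3 other probe sets gave the same order, with differences of means from 1.49 to 1.68, from 3.65 to 4.17 and from 2.16 to 2.60 in the same 3 comparisons.

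Tnfrsf19, a receptor of the tumour necrosis factor family that is induced by WNT signalling, was highest in hair germ and lowest in bulge. It was at 7.24, 7.63 and 8.91 in dermal papilla, at 9.27, 9.60 and 9.24 in hair germ, and at 5.54, 4.74 and 4.86 in bulge. The groups did not overlap, but dermal papilla on day 69 came close to the lowest hair germ array. Hair germ exceeded bulge by 4.33 ± 0.39 (adjusted p = 5.63e-05), at least 11.4-fold, and dermal papilla exceeded bulge by 2.88 ± 0.39 (adjusted p = 0.000143), at least 4.21-fold. Dermal papilla was below hair germ by a log2 difference of -1.44 ± 0.39 (adjusted p = 0.0124), a call that ended without the day 43 dermal papilla array, the day 56 dermal papilla array or the day 56 hair germ array (adjusted p = 0.0655, adjusted p = 0.0663 and adjusted p = 0.0672). A second probe set above the median on 6 arrays gave -1.37, 1.67 and 3.04 for dermal papilla minus hair germ, dermal papilla minus bulge and hair germ minus bulge, and 1 more was below the median on all 9. Melanocyte markers, listed above, were also higher in hair germ than in bulge; their part in any difference between the 2 epithelial populations was not tested.

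**Figure D2:**
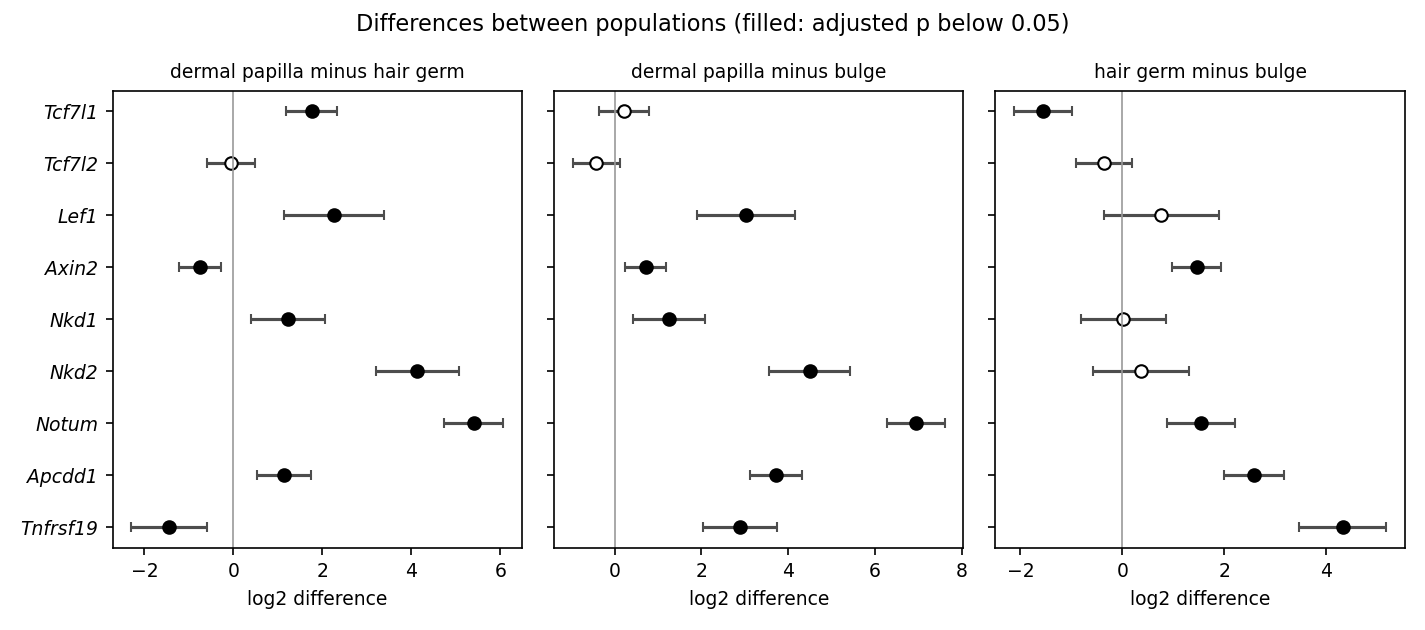
Log2 differences between populations for the 9 genes (horizontal axis; positive means higher in the population named first), with 95% confidence intervals from limma as bars; filled points passed an adjusted p below 0.05 and open points did not. Notum lies at 5.39, 6.94 and 1.55 in the 3 panels, and Tcf7l2 is open in all of them.

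Set against all genes, 6 of the 9 were higher and 2 lower in dermal papilla than in hair germ, where 15.5% of the 7796 tested genes were higher and 23.8% lower. Against bulge, 7 of 9 were higher in dermal papilla and 0 lower, where 16.1% of all genes were higher and 19% lower. Between hair germ and bulge, 4 of 9 were higher in hair germ and 1 lower, where 12.2% of all genes were higher and 7.56% lower. The median difference over the 9 genes was 1.23, 2.88 and 0.76 in these comparisons, against -0.15, -0.05 and 0.10 over all tested genes. These are descriptions of genes chosen by name with earlier results of these data known, so the set is not independent of the data. Of the 9, Lef1, Nkd1 and Nkd2 passed the filter only through dermal papilla, and Lef1 was sorted on. All of these are among the genes counted higher in dermal papilla in both comparisons, and their direction was set in advance. The counts and medians above and the non-overlap counts below include them. Both this and the way the set was chosen limit any comparison with the shares over all genes. The groups did not overlap for 8 of 9 genes between dermal papilla and hair germ, where the same held for 45.6% of all tested genes, for 8 of 9 between dermal papilla and bulge, against 52.6% of all genes, and for 6 of 9 between hair germ and bulge, against 38.9%. Without the 3 arrays of high Gapdh ratio, 4 of the 9 were higher and 1 lower in dermal papilla than in hair germ, where 8.97% of all tested genes were higher and 13.9% lower.

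**Figure D3:**
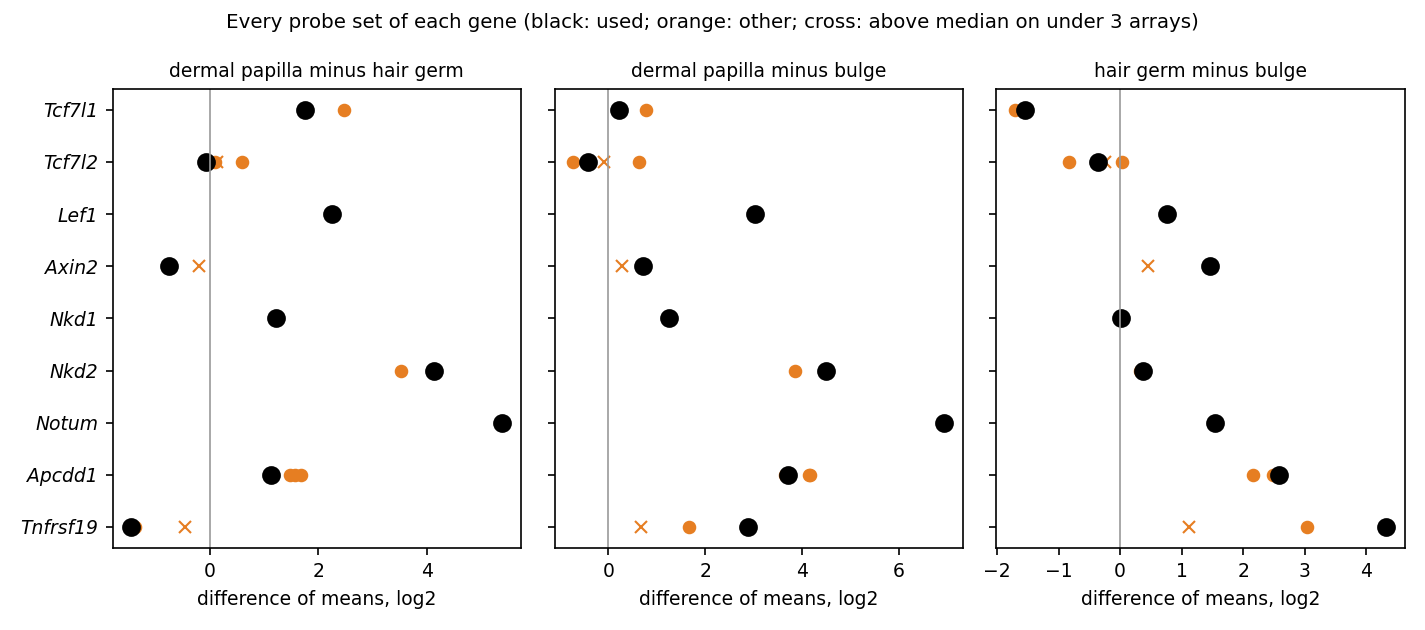
Differences of population means in log2 units (horizontal axis) for all 20 probe sets of the 9 genes; large black points are the probe sets used, orange points the others, and crosses those above the array median on fewer than 3 arrays. The 4 Apcdd1 probe sets lie together in each panel, the Tcf7l2 probe sets fall on both sides of 0, and the Tnfrsf19 probe sets spread from 1.12 to 4.33 for hair germ minus bulge.

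The days were compared first across the 3 populations as an additive term. No gene was called by limma on day 56 against day 43 (0%) or on day 69 against day 43 (0%), with 398 and 565 of the 7796 genes at an unadjusted p below 0.05. Among the 9 genes, the differences ran from -0.48 for Axin2 to 0.65 for Lef1 on day 56 and from -0.08 for Notum to 0.96 for Lef1 on day 69. Axin2 on day 56 and Tcf7l1 on day 69 (0.60) had the lowest p-values, with adjusted p = 0.845 and adjusted p = 0.682. Tcf7l1 was higher on day 69 than on day 43 in 3 of 3 populations, by 0.70, 0.93 and 0.17 in dermal papilla, hair germ and bulge. Axin2 was lower on day 56 than on day 43 in 3 of 3 populations, with differences of -0.61, -0.28 and -0.54.

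Within a population each day is 1 array, so differences between days have no test and are given as values. A gene was counted as 2-fold different where 2 arrays were at least 1 log2 unit apart and the brighter of them exceeded its array median. In dermal papilla on day 69 against day 43, 3 of the 9 genes were 2-fold different, all higher, where 8.21% of all tested genes were 2-fold different in either direction. These were Lef1 by 2.77 (6.80-fold), Tnfrsf19 by 1.67 (3.18-fold) and Nkd1 by 1.59 (3.01-fold). Most of each difference lay between days 56 and 69, where Lef1 differed by 2.05, Tnfrsf19 by 1.28 and Nkd1 by 1.18. In the same dermal papilla arrays Notum, Apcdd1 and Nkd2 differed between days 43 and 69 by -0.35, -0.19 and -0.28, and Axin2 by 0.29. On the probe sets used, the 6 genes other than Lef1, Nkd1 and Tnfrsf19 differed by less than 2-fold between these 2 days.

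Papilla markers moved with these genes on the day 69 array. Of 8 markers, 6 were at least 2-fold higher on day 69 than on day 43 in dermal papilla and 0 at least 2-fold lower, with a median difference of 1.46. Sox2 was at 7.91, 7.51 and 9.31 on the 3 days, Corin at 8.53, 8.63 and 10.20 and Vcan at 10.82, 10.18 and 11.93, while Crabp1 was at 13.25, 12.98 and 12.91. Keratinocyte markers moved the other way, with summed signals of 1486, 504 and 479, and 4 of 7 were at least 2-fold lower on day 69. Only 1, Krt14, was at least 2-fold higher, and it was below the array median on all 3 dermal papilla arrays. Fibroblast markers summed to 20161, 15182 and 15514; 2 of 7, Dcn and Lum, were at least 2-fold higher on day 69, by 2.46 and 1.57, and 0 at least 2-fold lower. The Gapdh 3′/5′ ratio was 6.62, 4.13 and 3.77. The part of the sort's purity or of RNA quality in the differences of Lef1, Nkd1 and Tnfrsf19 was not tested. For Tnfrsf19 the difference also depended on the probe set: the other set above the median differed by 0.55 between days 43 and 69. Apcdd1 depended on it in the opposite sense, since its 3 other probe sets were higher on day 69 by 0.66 to 1.91 where the one used differed by -0.19.

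**Figure D4:**
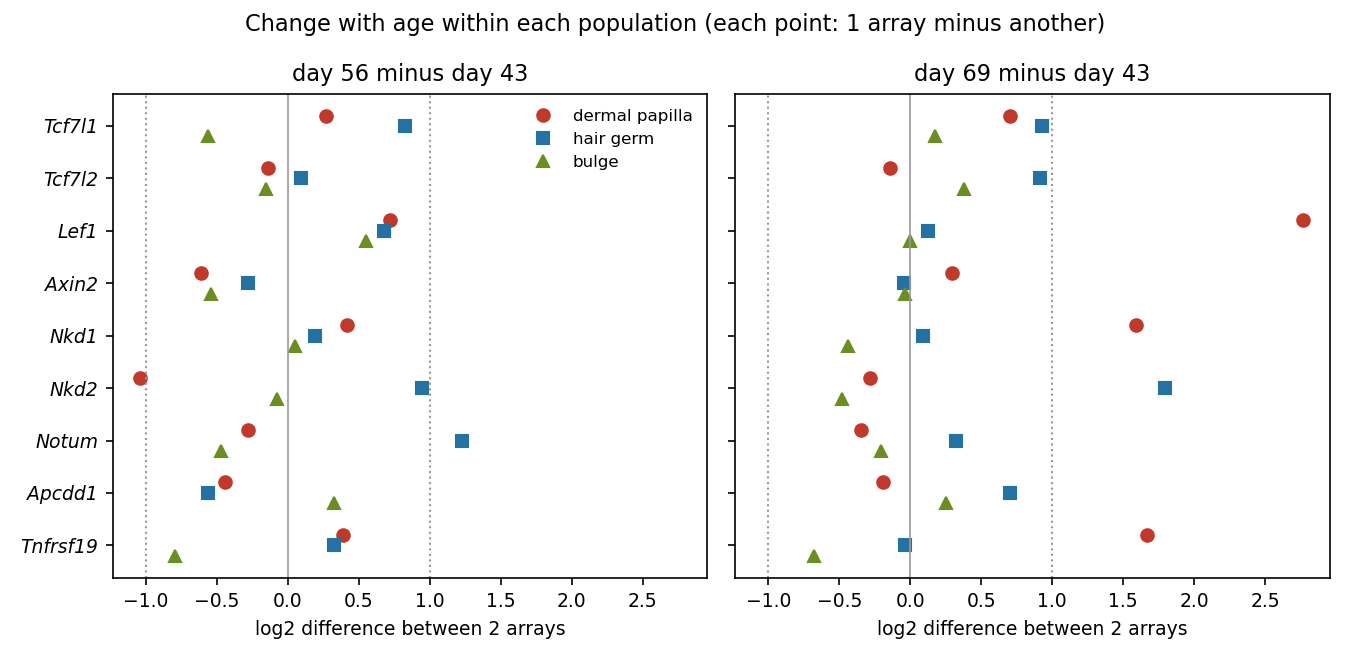
Differences between days within each population for the 9 genes, in log2 units on the horizontal axis, day 56 minus day 43 on the left and day 69 minus day 43 on the right; each point is 1 array minus another of the same population, and dotted lines mark 2-fold. Lef1, Nkd1 and Tnfrsf19 in dermal papilla lie beyond 2-fold on day 69, at 2.77, 1.59 and 1.67, as does Nkd2 in hair germ at 1.80, where both arrays were below their medians, and all bulge points lie between -0.79 and 0.55.

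On day 56 against day 43, 1 of the 9 genes was 2-fold different in dermal papilla, where 7.17% of all genes were: Nkd2, with a difference of -1.05. In hair germ 1 of 9 was 2-fold different, Notum by 1.23, where 8.25% of all genes were. On day 69 against day 43 in hair germ 0 of 9 met the rule, where 12.3% of all genes did; Nkd2 differed there by 1.80 but was below the array median on each hair germ array. Apcdd1 in hair germ was 2-fold higher on day 69 than on day 56, by 1.27, on the probe set used. Its 3 other probe sets were higher by less than 2-fold, at 9.25 and 10.03, 6.84 and 7.60, and 9.94 and 10.69 on days 56 and 69. The Gapdh 3′/5′ ratios of these hair germ arrays were 2.97 and 7.90, and the part of RNA quality was not tested. No share over all genes is given for this pair of days. In bulge 0 of 9 were 2-fold different on day 56, where 0.564% of all genes were, and 0 of 9 on day 69, where 2.59% were. Axin2 in hair germ stayed within 0.28 log2 units over the 3 days.

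Other genes of the pathway were read on the same arrays, from lists drawn up by role with earlier results of these data known. Over all 7796 tested genes, 15.5% were called higher and 23.8% lower in dermal papilla against hair germ. Against bulge, 16.1% were higher and 19% lower in dermal papilla, and 12.2% higher and 7.56% lower in hair germ. The medians over all tested genes were -0.15, -0.05 and 0.10. Counts and medians of the lists are descriptions to set beside these values. Of 20 WNT receptors and receptor modifiers, 9 were tested. Dermal papilla was higher in 2 and lower in 2 against hair germ, and higher in 1 and lower in 6 against bulge, and hair germ was higher in 1 and lower in 4 against bulge. The medians were 0.07, -1.46 and -0.33. Fzd6, a Frizzled receptor, was lower in dermal papilla than in either epithelial population, by differences of -4.71 against hair germ and -4.72 against bulge (adjusted p = 2.54e-07 and adjusted p = 2.32e-07); it was below the array median on all 3 dermal papilla arrays, so that hair germ was at least 17.3-fold and bulge at least 17.5-fold higher than dermal papilla. Ror2, a co-receptor for WNT5A, was higher in dermal papilla, by 1.74 against hair germ and 2.61 against bulge (adjusted p = 0.000401 and adjusted p = 1.99e-05). With bulge below the array median, Ror2 was at least 3.86-fold higher in dermal papilla than there. It was above the median on 3 dermal papilla arrays and 1 hair germ array, and so passed the filter only through dermal papilla. Its p-values are therefore descriptions only. Fzd7 and Fzd2 were brightest in bulge: dermal papilla differed from bulge by -2.42 and -1.71, and hair germ from bulge by -2.71 and -2.48, with adjusted p from 3.08e-05 to 0.000426.

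β-catenin itself, Ctnnb1, differed by 0.57, 0.34 and -0.23 in the 3 comparisons and was not called in any (adjusted p from 0.0637 to 0.507). Of 20 genes for β-catenin and its cytoplasmic regulators, 14 were tested; 1 was higher and 2 lower in dermal papilla against hair germ, 1 higher and 2 lower against bulge, and 0 were called between hair germ and bulge. The medians were -0.35, -0.08 and 0.06. Dact1, a Dishevelled-binding protein, was higher in dermal papilla by 1.29 against hair germ and 1.74 against bulge (adjusted p = 0.015 and adjusted p = 0.00295). It was below the array median in bulge, which gives at least 2.61-fold for dermal papilla over bulge. With 3 dermal papilla arrays and 1 hair germ array above the median, Dact1 passed the filter only through dermal papilla, and its p-values are descriptions only. Tnks2, a tankyrase that marks Axin for degradation, was lower in dermal papilla, with differences of -0.56 against hair germ and -0.99 against bulge (adjusted p = 0.0409 and adjusted p = 0.00203). The kinase gene Csnk1a1 was lower in dermal papilla than in hair germ (-0.85, adjusted p = 0.0126), and Apc lower than in bulge (-0.71, adjusted p = 0.0191).

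Of 18 nuclear partners of TCF and β-catenin, 15 were tested. In dermal papilla 3 were higher and 2 lower against hair germ, and 3 higher and 4 lower against bulge; hair germ had 2 higher and 1 lower against bulge. The medians were 0.23, 0.30 and -0.16. The groucho-family corepressors, which bind TCF proteins in the absence of β-catenin, differed in opposite senses. Tle2 was higher in dermal papilla by 2.68 and 3.36 against hair germ and bulge (adjusted p = 6.21e-06 and adjusted p = 1.12e-06), and Tle4 lower, with differences of -1.12 and -1.28 (adjusted p = 0.00137 and adjusted p = 0.000562). Tle1 was higher in dermal papilla than in bulge by 1.46 (adjusted p = 0.00309), and the corepressor Ctbp2 was higher than in hair germ by 2.35 and than in bulge by 1.90 (adjusted p = 0.000145 and adjusted p = 0.000682).

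Other genes known as WNT targets, several of them from intestine, formed the last list. Of 17, 8 were tested: dermal papilla had 1 higher and 5 lower against hair germ, and 1 higher and 4 lower against bulge, and hair germ had 2 higher and 2 lower against bulge. The medians were -1.52, -0.66 and 0.17. Lgr5, an R-spondin receptor of follicle stem cells, was lower in dermal papilla by differences of -3.45 against hair germ and -4.57 against bulge (adjusted p = 1.27e-05 and adjusted p = 1.5e-06). Hair germ was below bulge by a difference of -1.11 (adjusted p = 0.0399), the opposite order to Axin2, but the groups overlapped. On days 43, 56 and 69 Lgr5 was at 7.58, 9.65 and 8.10 in hair germ and at 9.51, 9.72 and 9.44 in bulge. The day 43 and day 69 hair germ arrays had Gapdh ratios of 8.34 and 7.90, against 2.97 on day 56. The part of RNA quality in this difference was not tested. In dermal papilla Lgr5 was below the array median on all 3 arrays, so that hair germ was at least 5.77-fold and bulge at least 12.5-fold higher than dermal papilla. Ascl2 was higher in hair germ than in bulge by 1.64 (adjusted p = 0.00101). It was lower in dermal papilla than in either (-2.66 and -1.02, adjusted p = 8.24e-06 and adjusted p = 0.00705). Dermal papilla was below the array median, so that hair germ was at least 2.99-fold higher, and bulge, above its median on 1 array, gave no bound. Ascl2 passed the filter only through hair germ, above the median on 3 arrays, so its p-values are descriptions only. Myc was lower in dermal papilla than in either epithelial population, with differences of -2.59 and -2.36 (adjusted p = 0.000697 and adjusted p = 0.00137). Its dermal papilla level depended on the day, at 4.88, 6.50 and 7.46 on days 43, 56 and 69. The day 43 value was below the array median, on an array with a Gapdh ratio of 6.62. The part of RNA quality in the Myc differences was not tested. Bambi, a decoy receptor for TGF-β family ligands, was higher in dermal papilla by 3.94 against hair germ and 2.61 against bulge (adjusted p = 1.83e-05 and adjusted p = 0.000389), and with hair germ below the array median it was at least 8.5-fold higher in dermal papilla than there.

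**Figure D5:**
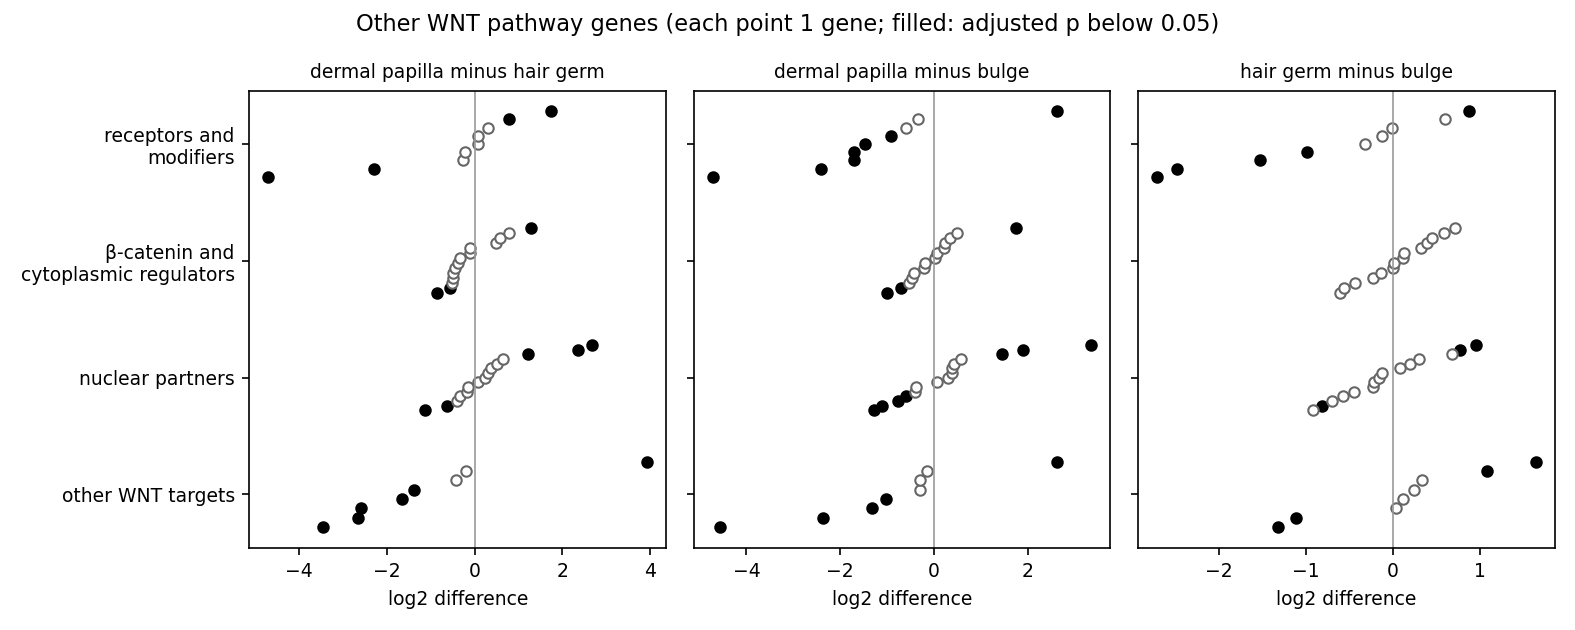
Log2 differences (horizontal axis) for the tested genes of 4 other WNT pathway lists, 1 point per gene, with filled points at an adjusted p below 0.05; the rows are receptors and modifiers (9 genes), β-catenin and cytoplasmic regulators (14), nuclear partners (15) and other WNT targets (8). In hair germ minus bulge none of the 14 β-catenin and cytoplasmic genes is filled.

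The genes whose levels were most like each of the 9 over the 9 arrays were found by Pearson's r. The arrays share population, so r is high for any pair with the same population pattern and is given as a description. Nkd1 was most like Lef1 itself (r = 0.964), then Pde9a and the papilla marker Alpl. Lef1 was most like Sox18 (r = 0.980), a transcription factor gene, then Alkbh5 and Mad2l2. Nkd2 was most like Ebf1 (r = 0.991), Notum most like Ckb (r = 0.995) and also like the corepressor gene Tle2 (r = 0.992). Apcdd1 was most like Pros1 (r = 0.986) and then Vegfa, and Tnfrsf19 most like Phldb2 (r = 0.982). Axin2 was most like Tpm3 (r = 0.970), Tcf7l1 like Ctdsp1 (r = 0.952) and Tcf7l2 like Zc3h14 (r = 0.950).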

How the data were processed

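Gene expression was measured on 9 oligonucleotide arrays, 1 per population and day. The authors deposited probe set intensity signals on a linear scale, made with MAS5 in GCOS per the submitters' processing notes; the scaling target is not given in the sources used here. Per the labels' protocols, RNA went through 2 rounds of amplification, which favours 3′ ends.

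These intensity values were used as log2(signal + 16), without rescaling arrays. Of 22690 probe sets, 64 controls were set aside; 20380 of the rest were annotated to 1 gene, 691 to more and 1555 to no listed gene, and 20351 of those with 1 gene were matched by gene ID to the RefSeq gene table. A probe set was kept if above its own array's median on at least 3 of 9 arrays (12801 kept), and the brightest kept one stood for its gene. R 4.3.3 and limma 3.58.1 fitted population and day as additive terms to all 9 arrays (4 residual degrees of freedom, eBayes with a trend, two-sided, Benjamini-Hochberg over 7796 genes, called below 0.05). Steps were tested on simulated data. The array number limits precision; detection calls were not used.

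All 10 members were to be reported, with up to 4 genes per pathway list by size among those called, the 3 genes most alike each member, and sort genes as a check; Ctnnb1 was added after its values were seen. Members and lists were chosen with earlier results of these data known. Pseudocount, scaling, filter, day term, trend, probe set choice and arrays left out were varied.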

Additional observations from a re-analysis of the deposited data

Results flagged for a closer look

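The 7 differences listed here are between populations in how a gene changed with age, and were picked by a rule. The arrays of 1 population differed at least 2-fold between days, while the difference in another had the opposite sign, however small. Each of the 7 rests on 4 arrays, and the difference between populations was not tested. Lef1 on day 69 against day 43 differed by 2.77 in dermal papilla and by -0.00147 in bulge, 2.77 apart; the bulge level was below the array median on both days. Nkd1 on day 69 differed by 1.59 in dermal papilla and by -0.44 in bulge, 2.03 apart, the bulge level again below the median. Tnfrsf19 on day 69 differed by 1.67 in dermal papilla, by -0.04 in hair germ and by -0.68 in bulge, which is 1.71 and 2.35 apart; the bulge level was below the median on both days. Nkd2 on day 56 differed by -1.05 in dermal papilla and by 0.94 in hair germ, a gap of -1.99; the hair germ level was below the median on both days. Notum on day 56 differed by 1.23 in hair germ, by -0.28 in dermal papilla and by -0.47 in bulge, which is 1.51 and 1.70 apart, the bulge level being below the median. Levels below the median on both days are given with no order read from them. Groups of 3 arrays are too small for a test of single outlying arrays.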

How the results depend on the processing

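Of 27 population differences of the 9 genes, 20 were called. Of the called ones, 13 were called under all 20 alternatives, 7 were lost under at least 1, and none turned sign. None of the 7 uncalled ones became called. These counts include the dermal papilla differences of Lef1, Nkd1 and Nkd2, whose direction was set in advance. Lef1 against bulge and both dermal papilla differences of Nkd2 are among the 13, and their calls are descriptions only. The 7 lost are the dermal papilla differences of Axin2 and Nkd1 against both populations and of Lef1 and Tnfrsf19 against hair germ, and Tcf7l1 between hair germ and bulge; adjusted p reached 0.117 and 0.0987 for Axin2 against bulge and hair germ, 0.146 and 0.145 for Nkd1, 0.0672 for Tnfrsf19, and, without the arrays of high Gapdh ratio, 0.0889 for Lef1 and 0.118 for Tcf7l1. That alternative gave 1783 genes called between dermal papilla and hair germ against 3062, 5 of the 9 genes against 8, 543 genes between hair germ and bulge against 1541, and 2.42 for Notum between hair germ and bulge; fewer arrays enter it. Leaving out 1 array at a time gave 783 to 1609 genes between hair germ and bulge (783, 973 and 863 without the day 43, 56 and 69 bulge arrays) and 5 to 8 of the 9 genes between dermal papilla and hair germ (5 without the day 56 hair germ array); Lef1 between dermal papilla and hair germ was 1.38 without the day 69 dermal papilla array. Uncalled values near 0 turned sign. Tcf7l2 in dermal papilla minus hair germ was 0.0732 with quantile normalization, 0.0860 with median centring, 0.196 over all probe sets, 0.00298 without the high-ratio arrays and -0.234 to 0.184 with 1 array left out. Nkd1 in hair germ minus bulge was -0.218 and -0.189 under the 2 scalings and -0.364 to 0.276 with 1 array left out; Nkd2 there ran from -0.107 to 0.982 and Tcf7l1 in dermal papilla minus bulge from -0.0526 to 0.502. The scalings put the median of all genes at 0.01 and 0.0006, against -0.15, in dermal papilla minus hair germ and at -0.05 and -0.11, against 0.10, in hair germ minus bulge, and the split of calls: 1526 higher and 1505 lower with quantile normalization and 1451 and 1482 with centring, against 1207 and 1855, and 693 and 794, or 613 and 941, against 952 and 589. Axin2 in dermal papilla minus hair germ was lost with centring (adjusted p = 0.0507). Pseudocounts of 1 and 64 gave 5.58 and 1.66 for Lef1 against bulge, and 64 gave 0.94 for Notum between hair germ and bulge. The cause of these changes was not tested. Arrays are matched by day, a term of the fit. With day as a random block, 3094, 2764 and 1566 genes and 8, 7 and 5 of the 9 were called in dermal papilla minus hair germ, dermal papilla minus bulge and hair germ minus bulge; without the day term Axin2 against bulge was lost (adjusted p = 0.0529).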
